A study of Homo sapiens with 8 samples.

Results

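A set of 10 genes of transforming growth factor beta (TGF-beta) signalling was followed in 2 human prostate cancer cell lines in which the pseudokinase gene TRIB1 had been raised. They were taken as the 10 rows, out of 57905 genes in the table, whose listed name is TGFB1, TGFB2, TGFBR1, TGFBR2, SMAD3, SMAD7, INHBA, ID2, ID3 or THBS1, and each name occurred once. All 10 reached a mean of 1 TPM (a transcript level scaled for gene length and library total) in at least 1 group and were tested with the other genes, INHBA through its level in PC3 alone. The libraries fall into 4 groups of 2: DU145 with TRIB1, DU145 control, PC3 with TRIB1 and PC3 control. The cells with TRIB1 had received a lentivirus that carries TRIB1, and the controls had received a blank lentivirus. Both are established cell lines, DU145 from a prostate tumour's spread to the brain and PC3 from a spread to bone, so each line stands for 1 tumour. The labels give neither the time after infection nor any ligand treatment. The column names hold PRE or pre for every library and yong for those of PC3, which the labels do not explain. They also leave unsaid if the replicates came from separate cultures or infections, so each p-value covers the spread of these libraries alone, and that spread may be technical.

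TGF-beta ligands are secreted in a latent form, held by their own propeptide and by latent TGF-beta binding proteins, and must be released before they act. The active ligand brings together the receptors encoded by TGFBR2 and TGFBR1, which phosphorylate SMAD2 and SMAD3. These enter the nucleus with SMAD4 and switch genes on or off. SMAD7 is induced by the pathway and blocks the receptors, thrombospondin 1 (THBS1) can release the latent ligand, and the ID genes are classic targets of the bone morphogenetic protein (BMP) branch that TGF-beta can also repress. In the prostate epithelium TGF-beta restrains growth, and cancer cells often lose that response.

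TRIB1, the gene added, was at 69.4 and 62.3 TPM in DU145 with TRIB1 and at 10.1 and 7.94 TPM in DU145 controls. In PC3 it was at 241 and 245 TPM with TRIB1 and at 45.1 and 50.8 TPM in controls. The log2 change was 2.75 in DU145 (adjusted p = 0.0018) and 2.32 in PC3 (adjusted p = 0.00095, limma over all genes). TPM values keep no totals, so the depth of the libraries is unknown, and 19731 to 21335 genes reached 1 TPM per library. Within a group the libraries correlated across genes at r = 0.957 to 0.958, except for DU145 with TRIB1, at 0.929. CTNNA1, known to be lost in PC3, was lower in PC3 controls than in DU145 controls but not at 0, at 62.0 and 91.3 TPM in PC3 controls and at 209.9 and 199 TPM in DU145 controls. The epithelial genes KRT8, KRT18, EPCAM, CDH1 and CLDN7 were present in every group.

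In PC3, TRIB1 came with a change in 8 of the 10 genes. TGFB2, INHBA, THBS1 and ID2 rose, and TGFB1, TGFBR2, SMAD3 and ID3 fell, while TGFBR1 and SMAD7 did not pass the test. Rose and fell stand for an adjusted p below 0.05 from limma on log2(TPM + 1), with Benjamini-Hochberg adjustment over the 25982 genes tested. Over all genes 17.0% passed that test in PC3, 7.67% higher and 9.33% lower. With a filter at a group mean of 5 TPM, which all 10 genes pass, 2002 of 16094 genes rose and 2574 fell in PC3, a larger share. TGFB2, INHBA and THBS1 also rose by more than 1 on the log2 scale and ID3 fell by more than 1, the cutoff of the series' design, which 2.52% of all genes passed upwards and 2.67% downwards. In DU145 only THBS1 passed, 1 of 10, beside 2.72% of all genes. With the filter at 5 TPM, 221 of 16094 genes rose and 621 fell there. The median log2 change of the 10 genes was 0.29 in PC3, beside -0.01 over all genes, and -0.18 in DU145, beside -0.04 over all genes. The PC3 count fell most without either DU145 control library or either PC3 library with TRIB1, and fewer of all genes passed there too. The DU145 call was lost without any 1 DU145 library or either PC3 library with TRIB1. Fewer of all genes passed there too, except without the first DU145 library with TRIB1. Without either PC3 control library the DU145 count was higher. In bulk RNA, fewer cells that express a gene and less RNA per cell cannot be told apart.

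**Figure D1:**
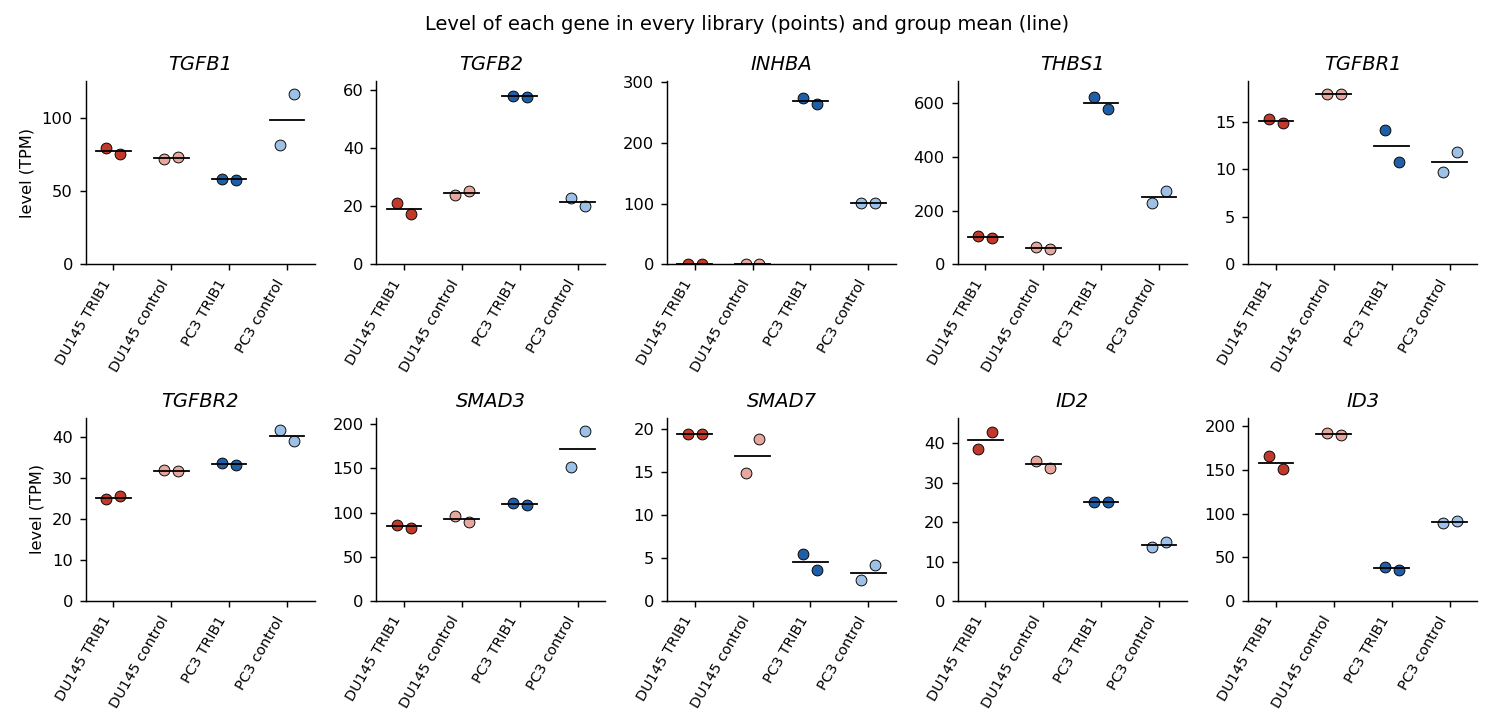
Level in TPM (linear axis from 0) of each of the 10 genes in every library (points) with the mean of the 2 libraries of each group (line), in the order DU145 TRIB1, DU145 control, PC3 TRIB1, PC3 control. TGFB2, INHBA, THBS1 and ID2 are higher in both PC3 libraries with TRIB1 than in both PC3 controls, and TGFB1, TGFBR2, SMAD3 and ID3 are lower.

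TGFB2, INHBA and THBS1, the genes that rose by more than 1 on the log2 scale in PC3, are shown with the DNA before their start, read from the RefSeq promoter table on GRCh38.p14 (a stretch from the base before the start back to 250 bases upstream, written 5′ to 3′ on the gene's own strand). Capitals mark CAGAC or its reverse complement, the short site that SMAD proteins recognise, and the letters TATAAA, a box found before many starts. The TGFB2 stretch is chr1:218345086-218345335 on the plus strand and that of THBS1 is chr15:39580829-39581078 on the plus strand. That of INHBA is chr7:41703109-41703340 on the minus strand, within an intron of the longer gene model, and it leaves out the 18 bases next to the start, which are exonic in another model.
TGFB2: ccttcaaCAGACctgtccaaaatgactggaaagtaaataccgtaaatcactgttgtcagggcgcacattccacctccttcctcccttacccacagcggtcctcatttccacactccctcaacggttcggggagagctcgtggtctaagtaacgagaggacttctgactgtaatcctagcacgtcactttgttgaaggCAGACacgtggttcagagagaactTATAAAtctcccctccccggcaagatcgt
INHBA: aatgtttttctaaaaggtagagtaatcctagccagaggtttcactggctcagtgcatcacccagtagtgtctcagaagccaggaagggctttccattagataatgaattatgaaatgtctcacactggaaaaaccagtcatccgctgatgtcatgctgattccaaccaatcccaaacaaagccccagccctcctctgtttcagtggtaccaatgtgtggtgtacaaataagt
THBS1: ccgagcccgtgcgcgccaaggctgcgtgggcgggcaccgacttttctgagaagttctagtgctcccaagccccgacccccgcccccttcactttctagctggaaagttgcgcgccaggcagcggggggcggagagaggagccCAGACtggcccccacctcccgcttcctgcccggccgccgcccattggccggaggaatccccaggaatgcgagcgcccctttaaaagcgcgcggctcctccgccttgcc
The TGFB2 stretch holds 2 matches to CAGAC and 1 to TATAAA. The THBS1 stretch holds 1 match to CAGAC, and the INHBA stretch printed holds none of the motifs, but 1 match to TATAAA lies in the 18 bases left out before the INHBA start. CAGAC is in 38.0% of 35116 windows of 250 bases before annotated starts and TATAAA in 10.7%. The full SMAD palindrome GTCTAGAC, in 0.182% of the windows, and the C/EBP core TTGCNNAA, in 9.05%, were in no window of the 10 genes, and the AP-1 motif TGANTCA, in 6.57%, was in 1 window of SMAD3. Both strands were searched, and a match is a description of the letters alone.

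Among the ligands, the 2 TGF-beta genes of the set moved in opposite directions in PC3. TGFB2 (ENSG00000092969, GRCh38, GENCODE 29, chr1:218346235-218444619, plus strand) encodes the isoform whose propeptide lacks the integrin-binding motif of its sister isoforms. It was at 58.1 and 57.8 TPM in PC3 with TRIB1, against 22.8 and 20.1 TPM in PC3 controls. Both libraries with TRIB1 lay far above both controls, and TGFB2 rose by a log2 of 1.40 (SE 0.11, adjusted p = 0.00185, limma), a ratio of means of 2.71. In DU145 it was at 21.0 and 17.5 TPM with TRIB1, against 24.0 and 25.2 TPM in controls. Those groups did not overlap either, with TRIB1 lower, but the log2 change of -0.34 did not pass (adjusted p = 0.182, limma).

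TGFB1 (ENSG00000105329, chr19:41301587-41353911, minus strand) encodes the isoform most widely made by cells. It was at 58.6 and 57.7 TPM in PC3 with TRIB1, against 81.4 and 116 TPM in PC3 controls. The libraries with TRIB1 were nearly equal and below both controls, which stood far apart from each other. TGFB1 fell by 0.73 on the log2 scale (SE 0.16, adjusted p = 0.0294, limma). Without any 1 of the DU145 libraries or of the PC3 libraries with TRIB1 the adjusted p was 0.0671 to 0.142. Without the second PC3 control the change was -0.48 (adjusted p = 0.0162). In DU145 TGFB1 was at 79.8 and 75.4 TPM with TRIB1, against 72.1 and 73.5 TPM in controls, a log2 change of 0.09 with a 95% interval of -0.30 to 0.48 (adjusted p = 0.841, limma). On the opposite strand the TGFB1 model overlaps HNRNPUL1, at 105 to 216 TPM, as well as CCDC97 and TMEM91. The strand setting of the counting is not given in the sources used here, so reads of such partners cannot be told apart.

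The share of TGFB2 in the sum of TGFB2 and TGFB1 followed from these levels. It was 49.8% and 50.03% in PC3 with TRIB1, against 21.9% and 14.7% in PC3 controls, while the sum itself was 117 and 115 TPM with TRIB1, against 104 and 136 TPM in controls. In DU145 the share was 20.8% and 18.8% with TRIB1, against 25.0% and 25.5% in controls. PC3 with TRIB1 thus held the 2 ligand transcripts in about equal amounts, and in the other 3 groups TGFB1 was the main one.

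INHBA (ENSG00000122641, chr7:41667168-41705834, minus strand) encodes the beta A subunit whose dimer is activin A, a ligand that signals through SMAD2 and SMAD3 by its own receptors. It was at 273 and 263 TPM in PC3 with TRIB1, against 100.9 and 100.7 TPM in PC3 controls. The 4 libraries formed 2 tight pairs, and INHBA rose by a log2 of 1.40 (SE 0.13, adjusted p = 0.00282, limma), a ratio of means of 2.66. In DU145 INHBA was at 0.0900 and 0.0788 TPM with TRIB1, against 0.435 and 0.125 TPM in controls. All 4 DU145 values were below 1 TPM, where a fold has little meaning at unknown depth. The antisense gene INHBA-AS1 was at 5.85 and 6.38 TPM in PC3 with TRIB1, against 2.42 and 1.77 TPM in PC3 controls. INHBB, the other activin subunit, moved the other way in PC3, where it was at 81.6 and 82.8 TPM with TRIB1, against 138 and 150.4 TPM in controls. INHBA made up 77.0% and 76.0% of the summed level of the 2 subunits in PC3 with TRIB1, against 42.1% and 40.1% in PC3 controls.

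THBS1 (ENSG00000137801, chr15:39581079-39599466, plus strand) encodes thrombospondin 1, a secreted matrix protein that binds the latent complex and can activate TGF-beta. It was the only one of the 10 genes that passed the test in both lines. In PC3 it was at 620.2 and 576 TPM with TRIB1, against 226 and 271 TPM in controls. The lowest library with TRIB1 was above both controls by a wide margin, and THBS1 rose by a log2 of 1.27 (SE 0.10, adjusted p = 0.00192, limma), a ratio of means of 2.41. DU145 had 105 and 98.5 TPM with TRIB1, against 63.3 and 58.6 TPM in controls. The groups did not overlap and THBS1 rose by a log2 of 0.73 (SE 0.10, adjusted p = 0.0275, limma), a ratio of means of 1.67. That call in DU145 was lost, at an adjusted p of 0.0835 to 0.129, without any 1 of the DU145 libraries or either PC3 library with TRIB1. FSIP1, which overlaps THBS1 on the opposite strand, was at 0.443 to 2.99 TPM in all libraries. THBS1 is also abundant in platelets. Of the 3 platelet markers, GP9 was at or near 0 in all libraries. PF4 rose beside THBS1 in PC3, where it was at 12.2 and 12.3 TPM with TRIB1, against 3.50 and 5.15 TPM in controls (log2 change 1.34, adjusted p = 0.0187, limma). In DU145, where THBS1 also rose, PF4 was at 1.19 and 0.858 TPM with TRIB1, against 1.99 and 3.32 TPM in controls. That log2 change of -0.83 did not pass (adjusted p = 0.161, limma). ITGA2B was at 7.03 and 4.55 TPM in PC3 with TRIB1, against 5.58 and 7.06 TPM in PC3 controls, and at 12.2 to 18.1 TPM in DU145. Their part in the THBS1 change was not tested.

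The receptor genes moved little. TGFBR2 (ENSG00000163513, chr3:30606502-30694142, plus strand) encodes the type II receptor, which binds the ligand first. It was at 33.6 and 33.1 TPM in PC3 with TRIB1, against 41.7 and 38.9 TPM in PC3 controls, and it fell by 0.26 on the log2 scale (SE 0.07, adjusted p = 0.044, limma). DU145 had 24.8 and 25.5 TPM with TRIB1, against 32.0 and 31.6 TPM in controls. The TRIB1 libraries were thus below the controls in both lines, by a ratio of means of 0.828 in PC3 and 0.790 in DU145. The DU145 change of -0.33 did not pass (adjusted p = 0.0667, limma), but passed without either PC3 control library (0.0463 and 0.0470). The PC3 call was lost, at an adjusted p of 0.0507 to 0.119, without either DU145 control, the second DU145 library with TRIB1, the first PC3 control or either PC3 library with TRIB1.

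TGFBR1 (ENSG00000106799, chr9:99104038-99154192, plus strand) encodes the type I receptor kinase that phosphorylates the SMADs. It was at 14.1 and 10.7 TPM in PC3 with TRIB1, against 9.68 and 11.8 TPM in PC3 controls. These groups overlapped, with a log2 change of 0.19 and a 95% interval of -0.19 to 0.56 (adjusted p = 0.476, limma). DU145 had 15.3 and 14.8 TPM with TRIB1, against 17.9 and 17.9 TPM in controls. The DU145 groups did not overlap, and the log2 change of -0.24 had a 95% interval of -0.61 to 0.14 (adjusted p = 0.478, limma).

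SMAD3 (ENSG00000166949, chr15:67063763-67195195, plus strand) encodes the receptor-activated SMAD that binds DNA directly. It was at 111 and 108 TPM in PC3 with TRIB1, against 151 and 192 TPM in PC3 controls. As for TGFB1, the libraries with TRIB1 agreed closely, lay below both controls, and the controls were apart. SMAD3 fell by 0.63 on the log2 scale (SE 0.11, adjusted p = 0.018, limma), a ratio of means of 0.640. The call was lost, at an adjusted p of 0.0520 to 0.104, without either DU145 control library or either PC3 library with TRIB1. In DU145 SMAD3 was at 86.3 and 83.1 TPM with TRIB1, against 96.0 and 89.8 TPM in controls, a log2 change of -0.13 with a 95% interval of -0.41 to 0.15 (adjusted p = 0.609, limma).

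SMAD7 (ENSG00000101665, chr18:48919853-48952052, minus strand) encodes the inhibitory SMAD that recruits ubiquitin ligases to the receptor and is itself a direct target of the pathway. It was at 5.51 and 3.59 TPM in PC3 with TRIB1, against 2.39 and 4.18 TPM in PC3 controls. The groups overlapped, and the log2 change of 0.38 had a 95% interval of -0.27 to 1.03 (adjusted p = 0.398, limma). In DU145 it was at 19.4 and 19.4 TPM with TRIB1, against 14.9 and 18.8 TPM in controls, a log2 change of 0.20 with a 95% interval of -0.45 to 0.85 (adjusted p = 0.764, limma). The intervals are wide enough to hold a change of either sign in each line.

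The 2 inhibitors of differentiation moved apart in PC3. ID2 and ID3 encode proteins that lack a DNA-binding region and hold basic helix-loop-helix factors away from DNA. ID3 (ENSG00000117318, chr1:23557918-23559794, minus strand) was at 39.5 and 36.0 TPM in PC3 with TRIB1, against 89.3 and 91.4 TPM in PC3 controls. Every library with TRIB1 was below every control, and ID3 fell by 1.24 on the log2 scale (SE 0.07, adjusted p = 0.000959, limma), a ratio of means of 0.418. In DU145 it was at 166 and 151 TPM with TRIB1, against 192 and 191 TPM in controls. Those groups did not overlap, but the log2 change of -0.27 did not pass (adjusted p = 0.129, limma).

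ID2 (ENSG00000115738, chr2:8678845-8684453, plus strand) was at 25.2 and 25.1 TPM in PC3 with TRIB1, against 13.6 and 14.9 TPM in PC3 controls. It rose by a log2 of 0.78 (SE 0.08, adjusted p = 0.0043, limma), a ratio of means of 1.77. In DU145 it was at 38.6 and 42.7 TPM with TRIB1, against 35.4 and 33.7 TPM in controls, a log2 change of 0.23 that did not pass (adjusted p = 0.243, limma). The antisense gene ID2-AS1 was lower in PC3 with TRIB1, at 1.16 and 1.39 TPM, against 2.40 and 2.32 TPM in PC3 controls. Of the summed level of ID2 and ID3, ID2 made up 38.9% and 41.0% in PC3 with TRIB1, against 13.2% and 14.02% in PC3 controls. In DU145 the share was 18.8% and 22.1% with TRIB1, against 15.6% and 15.04% in controls.

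**Figure D2:**
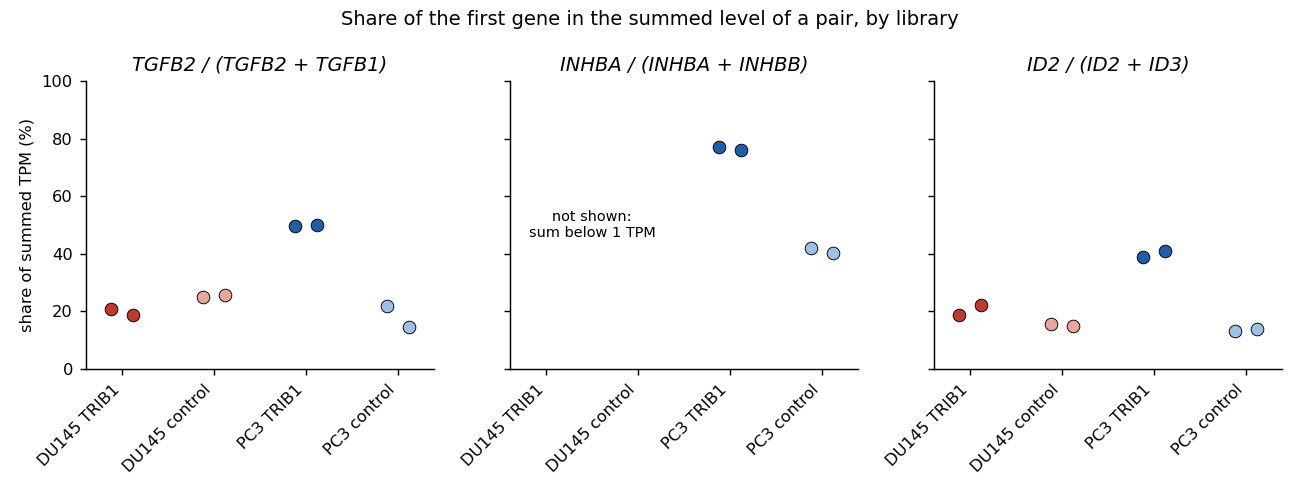
Share of the first gene in the summed TPM of a pair (percent) in every library (points), for TGFB2 with TGFB1, INHBA with INHBB and ID2 with ID3. In each pair the first gene takes a larger share in both PC3 libraries with TRIB1 than in both PC3 controls, and the INHBA pair is not drawn for DU145, where its sum was below 1 TPM.

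Whether the lines differed in their change was tested as the DU145 change minus the PC3 change. It passed for 4 of the 10 genes, beside 9.37% of all genes, but for INHBA no change in DU145 could be seen at its level there. With the filter at 5 TPM it passed upwards for 1186 and downwards for 1500 of 16094 genes. For TGFB2 the difference was -1.74 (adjusted p = 0.00499), from a log2 change of -0.34 in DU145 and 1.40 in PC3. For INHBA it was -1.63 (adjusted p = 0.00828), which sets the PC3 change against a DU145 level below 1 TPM in every library, and with a pseudocount of 0.1 the call was lost (-2.32, adjusted p = 0.0563). For ID3 it was 0.97 (adjusted p = 0.00737), from -0.27 in DU145 and -1.24 in PC3, so that the sign was the same in both lines and the size differed. For ID2 it was -0.55 (adjusted p = 0.0434, limma), from 0.23 in DU145 and 0.78 in PC3. This last call was lost, at an adjusted p of 0.0510 to 0.116, without any 1 library other than the second PC3 control.

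The difference did not pass for the other 6 genes. For THBS1, which passed in both lines, it was -0.54 with a 95% interval of -0.88 to -0.19 (adjusted p = 0.0734, limma), and it passed without the second PC3 control (0.0404). For TGFB1 it was 0.82 (adjusted p = 0.0784) and passed without either PC3 control (0.0111 and 0.0242). For SMAD3 it was 0.50 (adjusted p = 0.12) and passed without the first PC3 control (0.0204). TGFB1 and SMAD3, which fell in PC3 and did not pass in DU145, are therefore not shown to differ between the lines with all libraries. For TGFBR2 it was -0.07 with a 95% interval of -0.29 to 0.16, for TGFBR1 -0.43 with one of -0.95 to 0.10, and for SMAD7 -0.18 with one of -1.10 to 0.74.

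**Figure D3:**
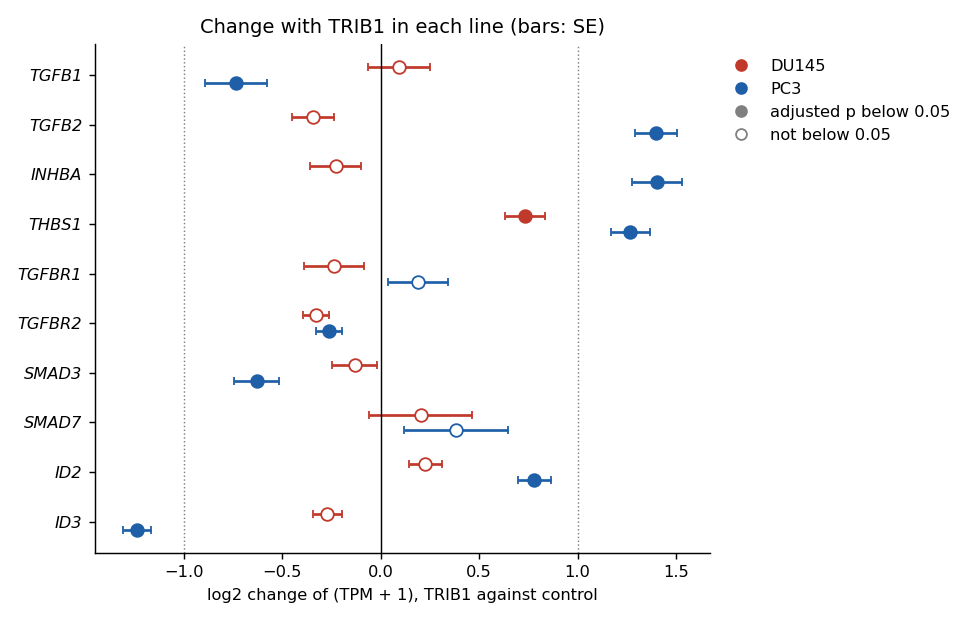
Log2 change of (TPM + 1) with TRIB1 against control for each of the 10 genes in DU145 and PC3, with bars of 1 SE and filled points where the adjusted p is below 0.05. In PC3 8 points are filled, from ID3 at -1.24 to INHBA at 1.40, and in DU145 only THBS1 is filled, at 0.73.

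The lines also differed without added TRIB1. Between control PC3 and control DU145, 8 of the 10 genes passed, 4 higher and 4 lower, beside 47.0% of all genes (18.6% higher and 28.4% lower), whose median log2 difference was -0.18. With the filter at 5 TPM, 4159 of 16094 genes were higher in PC3 and 5921 lower, a larger share. The widest gap was in INHBA, at 100.9 and 100.7 TPM in PC3 controls and at 0.435 and 0.125 TPM in DU145 controls, a log2 difference of 6.32 on the TPM + 1 scale (adjusted p = 3.4e-06, limma). INHBA, counted among the 4 higher genes, was tested through its level in PC3 alone. The size of its difference ranged from 6.15 to 8.18 over the alternatives, the latter with a pseudocount of 0.1. THBS1 was higher in PC3 by a log2 of 2.01 (adjusted p = 4.03e-05), SMAD3 by 0.87 (adjusted p = 0.00155) and TGFBR2 by 0.33 (adjusted p = 0.0078). SMAD7 was lower in PC3, with a difference of -2.08 (adjusted p = 0.00133), as were ID2, at -1.22 (adjusted p = 0.000122), ID3, at -1.07 (adjusted p = 0.000111), and TGFBR1, at -0.69 (adjusted p = 0.012, limma). The TGFBR1 call was lost, at an adjusted p of 0.0609 to 0.0654, without either DU145 control or the first PC3 control. TGFB1, at 0.41 (adjusted p = 0.0775), and TGFB2, at -0.19 (adjusted p = 0.201), did not pass. The PC3 controls decided the TGFB1 value, which was 0.67 without the first (adjusted p = 0.00158) and 0.16 without the second (0.0741). These control libraries are also those of the comparisons with TRIB1.

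The order of the 4 groups differed from gene to gene. For INHBA and THBS1 PC3 with TRIB1 was highest and PC3 control next, with both DU145 groups below. For TGFBR2 and SMAD3 PC3 control was highest, PC3 with TRIB1 next, then DU145 control, and DU145 with TRIB1 lowest. ID3, ID2, SMAD7 and TGFBR1 were highest in DU145. For ID3 the order was DU145 control, DU145 with TRIB1, PC3 control, PC3 with TRIB1, and for ID2 it was DU145 with TRIB1, DU145 control, PC3 with TRIB1, PC3 control. For TGFB1 PC3 control was highest and PC3 with TRIB1 lowest. For TGFB2 PC3 with TRIB1 was highest, and DU145 control, PC3 control and DU145 with TRIB1 followed. Neighbours in these orders overlapped in 3 places: PC3 with TRIB1 and PC3 control for TGFBR1 and for SMAD7, and PC3 control and DU145 with TRIB1 for TGFB2.

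Per length, THBS1 was the most abundant of the 10 transcripts in PC3 with TRIB1, at 598 ± 31.1 TPM (SD, n = 2). INHBA came next there, at 268 ± 7.29 TPM. In DU145 ID3 was the most abundant, at 159 ± 11.0 TPM with TRIB1 and 191 ± 0.990 TPM in controls. SMAD7 was the lowest in PC3, at 4.55 ± 1.36 TPM with TRIB1 and 3.29 ± 1.26 TPM in controls, and INHBA the lowest in DU145.

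The wider pathway was read through 81 other genes in 5 lists, of which 74 were tested. In PC3 14 of them rose and 14 fell, beside 7.67% and 9.33% of all genes in those directions. In DU145 2 rose and 7 fell, beside 0.712% and 2.01% of all genes in those directions. With the filter at 5 TPM, 13 of 65 pathway genes rose and 14 fell in PC3, beside 2002 and 2574 of 16094 genes. In DU145 3 rose and 9 fell under that filter, beside 221 and 621 of 16094 genes. The median log2 change of the 74 was -0.09 in PC3 and -0.10 in DU145, beside -0.01 and -0.04 over all genes in those lines. The PC3 count of 28 fell most without either PC3 library with TRIB1, where fewer of all genes passed too. The DU145 count of 9 fell most without either DU145 control or either PC3 library with TRIB1, where fewer of all genes passed too. The DU145 change differed from the PC3 change for 24 of the 74, 12 higher and 12 lower in DU145, beside 9.37% of all genes. That count was 15 without the first DU145 control, and 13 and 14 without the first and the second PC3 library with TRIB1. Between the controls 33 were higher and 22 lower in PC3, beside 18.6% and 28.4% of all genes.

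Of 13 further ligands and traps, 3 rose and 2 fell in PC3 and 1 rose in DU145. Over all genes 7.67% rose and 9.33% fell in PC3, and 0.712% rose in DU145. BMP4, a BMP ligand, rose in both lines. It was at 42.2 and 42.9 TPM in DU145 with TRIB1, against 14.7 and 17.5 TPM in DU145 controls (log2 change 1.35, adjusted p = 0.00827, limma), and at 19.9 and 18.6 TPM in PC3 with TRIB1, against 6.58 and 7.89 TPM in PC3 controls (1.30, adjusted p = 0.0029). The BMP4 call in DU145 was lost with the replicate number as a block and with the line fitted alone. BMP2, its close relative, was at 9.96 and 10.1 TPM in PC3 with TRIB1, against 1.43 and 1.52 TPM in PC3 controls, and rose by a log2 of 2.15 (adjusted p = 0.00169). INHBB fell by 0.80 (adjusted p = 0.00447).

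Of 9 genes of latency and activation, 1 rose and 3 fell in PC3 and none passed in DU145 by limma, where 3 had an unadjusted p below 0.05. The shares of all genes were 7.67% and 9.33% in PC3, and 2.72% passed in DU145. LTBP1 and LTBP4 encode latent TGF-beta binding proteins, which tether the latent ligand in the matrix. LTBP1 was at 34.8 and 30.6 TPM in PC3 with TRIB1, against 109 and 103 TPM in PC3 controls, and fell by 1.66 on the log2 scale (adjusted p = 0.000959). LTBP4 was at 33.1 and 29.8 TPM with TRIB1, against 81.2 and 87.7 TPM in controls, and fell by 1.40 (adjusted p = 0.000959). Both thus moved in the opposite direction to THBS1 in the same libraries. FURIN, the protease that cleaves the propeptide, fell by 0.46 (adjusted p = 0.0337, limma), a call lost without any 1 PC3 library or either DU145 control (0.0569 to 0.151).

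Of 11 receptors and co-receptors, 3 rose in PC3 and none passed in DU145 by limma, where 1 had an unadjusted p below 0.05. Beside them, 7.67% of all genes rose in PC3 and 2.72% passed in DU145. BAMBI, a decoy receptor without a kinase, rose by a log2 of 0.71 (adjusted p = 0.0243, limma), to 15.7 and 15.4 TPM with TRIB1, against 8.06 and 10.3 TPM in controls. The BMP receptor gene BMPR1B rose by 0.76 (adjusted p = 0.0335) and the activin receptor gene ACVR1B by 0.42 (adjusted p = 0.0438). BAMBI lost its call without either DU145 control, the first PC3 control or either PC3 library with TRIB1 (0.0589 to 0.115), BMPR1B without any 1 PC3 library (0.0584 to 0.0989), and ACVR1B without any 1 of the 8 libraries (0.0589 to 0.151).

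Of 18 SMADs and regulators, 4 rose and 3 fell in PC3, and 2 fell in DU145. The shares of all genes were 7.67% and 9.33% in PC3, and 2.01% fell in DU145. SMAD2, the partner of SMAD3, was at 27.1 and 29.1 TPM in PC3 with TRIB1, against 42.6 and 41.7 TPM in PC3 controls, and fell by 0.57 (adjusted p = 0.00401, limma). FKBP1A, which holds the type I receptor inactive, fell by 0.60 (adjusted p = 0.00344), and STRAP, which helps SMAD7 at the receptor, rose by 0.70 (adjusted p = 0.00458). In DU145 the ubiquitin ligase genes NEDD4L and SMURF1, whose products mark SMADs and receptors for breakdown, fell by 0.84 (adjusted p = 0.00638) and 0.58 (adjusted p = 0.0195, limma). SMURF1 lost the call without either PC3 library with TRIB1 (0.0514 and 0.0520).

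Of 23 further targets, 3 rose and 6 fell in PC3, and 1 rose and 5 fell in DU145. Over all genes 7.67% rose and 9.33% fell in PC3, and 0.712% and 2.01% in DU145. The median log2 change over the list was -0.38 in PC3 and -0.28 in DU145, beside -0.01 and -0.04 over all genes. COL4A1, a basement membrane collagen, was at 7.14 and 6.88 TPM in PC3 with TRIB1, against 15.9 and 17.0 TPM in PC3 controls, and fell by 1.12 on the log2 scale (adjusted p = 0.00172, limma), while CDKN1A, the cell cycle inhibitor p21, rose by 0.99 (adjusted p = 0.00134). In DU145 TGFBI, a matrix protein named for its induction by TGF-beta, was at 186 and 178 TPM with TRIB1, against 373 and 363 TPM in controls (log2 change -1.01, adjusted p = 0.00424). The transglutaminase gene TGM2 was at 88.3 and 90.5 TPM in DU145 with TRIB1, against 215 and 216 TPM in controls (-1.26, adjusted p = 0.00441). Fibronectin (FN1) fell in DU145 by 0.95 (adjusted p = 0.0196), a call lost without any 1 DU145 library (0.0662 to 0.0991).

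**Figure D4:**
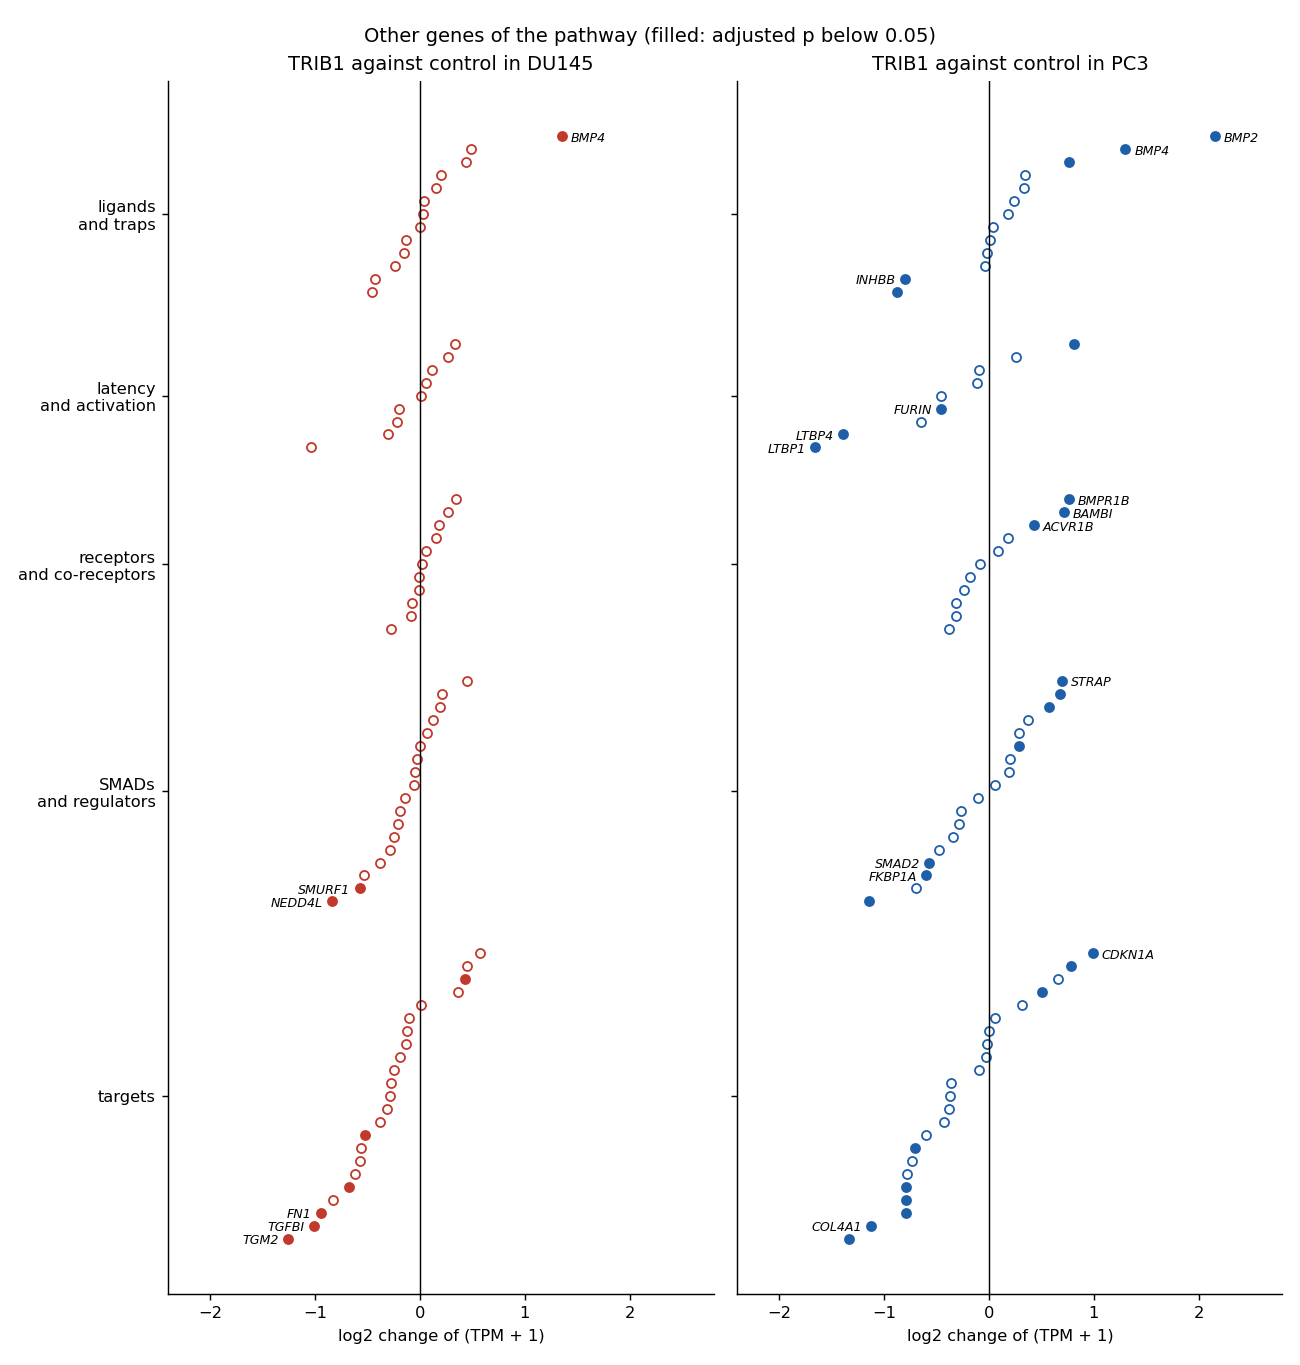
Log2 change of (TPM + 1) with TRIB1 against control for the 74 other pathway genes tested, by list, in DU145 (left) and PC3 (right), each list sorted by its change and filled points where the adjusted p is below 0.05. Of the points, 28 are filled in PC3 and 9 in DU145, and labels name the genes given in the text, from LTBP1 at -1.66 to BMP2 at 2.15 in PC3.

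Of these genes 5 passed in both lines in opposite directions, a group singled out after the values were seen. How many of all genes did so was not counted. NEDD4L, SMURF1, FN1 and CDKN1A fell in DU145 and rose in PC3, and CCN2 (connective tissue growth factor) rose in DU145 and fell in PC3. FN1 was at 4.45 and 4.30 TPM in DU145 with TRIB1, against 9.75 and 8.97 TPM in DU145 controls, and at 205 and 169 TPM in PC3 with TRIB1, against 113 and 102 TPM in PC3 controls. CDKN1A was at 73.8 and 67.9 TPM in DU145 with TRIB1, against 103 and 101 TPM in controls, and at 115 and 118 TPM in PC3 with TRIB1, against 55.7 and 60.5 TPM in controls. CCN2 was at 58.0 and 55.1 TPM in DU145 with TRIB1, against 40.1 and 43.3 TPM in controls, and at 13.5 and 13.2 TPM in PC3 with TRIB1, against 24.7 and 23.0 TPM in controls. It passed close to the threshold in DU145 (adjusted p = 0.0494, limma), and its calls were not followed gene by gene over the alternatives. The same holds for the PC3 calls of NEDD4L, SMURF1 and FN1, the DU145 call of CDKN1A and the calls of ID1. SMURF1 passed in PC3 at an adjusted p of 0.0426 (limma). The DU145 calls of SMURF1 and FN1 did not hold in every fit with 1 library left out. With DU145 fitted alone, 2 pathway genes passed there, TGFBI and TGM2. With the replicate number as a block, 0 passed in DU145. In neither setting did any of the 5 genes keep its DU145 call. ID1, the sister gene of ID2 and ID3, fell in both lines, by 0.67 in DU145 (adjusted p = 0.0303) and 0.79 in PC3 (adjusted p = 0.0058, limma).

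Markers of cell state moved with these genes in PC3. All 5 epithelial genes rose by more than 1 on the log2 scale there, and their summed level was 1675 to 1709 TPM in PC3 with TRIB1, against 569 to 594 TPM in PC3 controls. In DU145 the sum was 1062 to 1133 TPM with TRIB1, against 1157 to 1209 TPM in controls. Of the 5 genes, CLDN7 fell there, by 0.53 (adjusted p = 0.0238, limma), and the other 4 did not pass. E-cadherin (CDH1), which TGF-beta signalling is known to lower, was at 107 and 101 TPM in PC3 with TRIB1, against 37.0 and 33.6 TPM in PC3 controls. The luminal marker KLK3 was listed at 0 in all but 1 library. Of 4 fibroblast markers the summed level was 5.595 to 6.39 TPM in PC3 with TRIB1, against 2.07 to 2.17 TPM in PC3 controls. The platelet markers summed to 16.9 to 19.3 TPM in PC3 with TRIB1, against 9.08 to 12.4 TPM in controls. Endothelial and leukocyte markers each summed to at most 3.56 TPM in every library. The part of these differences in the changes of the 10 genes was not tested.

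The transcripts whose pattern was most like that of each gene were found by the Pearson correlation of log2(TPM + 1), centred within each line, over the 8 libraries, among 12154 protein-coding genes of at least 5 TPM in a group. These libraries form 4 groups of 2, so the values describe likeness and carry no p. ID3 was closest to PAM (0.999) and to LTBP4 (0.998), which the pathway lists also hold. TGFB2 was closest to DMKN and BRK1 (0.997 and 0.996) and INHBA to LYPLA1 and KRTAP2-3 (0.999 and 0.997). THBS1 was closest to SIRT1 and CCDC86 (0.996 and 0.995) and ID2 to CDC14A and SDCBP2 (0.992 and 0.991). TGFB1 was closest to GPR137 and EEF1A2 (0.997 and 0.993), SMAD3 to GPR135 and ITM2C (0.996 and 0.995) and TGFBR2 to PON2 and F2RL1 (0.994 and 0.992).

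The 8 calls in PC3 differed in how they held when the processing changed. Over 16 alternatives TGFB2, THBS1, ID2 and ID3 kept theirs each time, with a highest adjusted p of 0.0315, 0.0317, 0.0396 and 0.0280. INHBA lost it only with a pseudocount of 0.1, at 0.0597. SMAD3 lost it in 6 alternatives, TGFB1 in 9 and TGFBR2 in 10, and no alternative turned the sign of any of these 8.

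**Figure D5:**
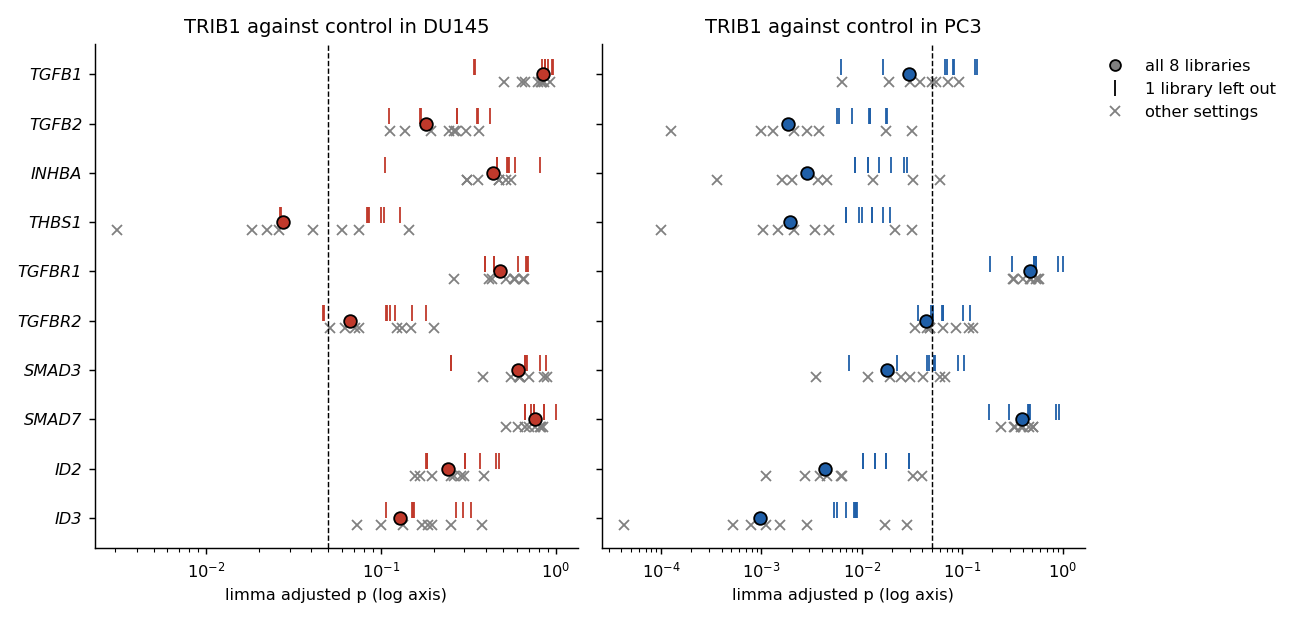
Adjusted p of limma (log axis) for each of the 10 genes in DU145 (left) and PC3 (right) with all 8 libraries (large points), with 1 library left out (vertical ticks) and under the other settings (crosses), with the dashed line at 0.05. In PC3 every mark of TGFB2, THBS1, ID2 and ID3 lies left of the line, and those of SMAD3, TGFB1 and TGFBR2 lie on both sides.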

How the data were processed

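RNA-seq libraries from 8 samples were grouped by their titles. The authors deposited 1 table of TPM values, 57905 genes by 8 columns that each sum to 1000000. Per the submitters' processing notes, the tools were HTSeq, edgeR, DESeq and TopHat2 2.0.14, with hg38. No source used here gives the annotation, the strand setting or the tool that made the TPM. TPM values are shares of a fixed total, so a gene that takes more lowers the others, and depth is unknown, so no counting interval is given. The table's own intervals were not used, because 0.7% of its starts match GENCODE 29 on GRCh38, and coordinates come from GENCODE 29 by gene identifier.

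Genes with a group mean of at least 1 TPM (25982) were tested on log2(TPM + 1), pseudocount 1, with limma 3.58.1 in R 4.3.3 (trended variance), in 1 fit of 4 group means over all 8 libraries (4 groups of 2). A log2 change on this scale understates that of low genes. P-values were Benjamini-Hochberg adjusted over all genes tested. The procedure was tested on simulated data. The 10 genes are always reported. In each line, up to 3 genes of each pathway list are named, those with the smallest adjusted p below 0.05 and at least 5 TPM in a group, as are the 2 most alike genes per member that passed in either line. ID1, CCN2 and the changes of NEDD4L, SMURF1, FN1 and CDKN1A in their second line were chosen after their values were seen. A gene that the rule names and 2 genes of the checks are not reported here; list counts include those tested. The members and lists were chosen with earlier results of these data known. Same-numbered replicates share only a number. Alternatives were a pseudocount of 0.1, no filter, a filter at 5 TPM, median-of-ratios and upper-quartile scaling, protein-coding genes alone, a replicate block, each line fitted alone, and leaving out each library.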

Additional observations from a re-analysis of the deposited data

Results flagged for a closer look

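The results below stand out because the change with TRIB1 differed between the 2 lines in the limma test of the DU145 change minus the PC3 change (adjusted p over all genes below 0.05). All are log2 differences on the TPM + 1 scale. Among the 10 genes, the difference was -1.74 for TGFB2, -1.63 for INHBA, -0.55 for ID2 and 0.97 for ID3. INHBA was below 1 TPM in every DU145 library and was tested through PC3 alone, so its value is the PC3 change against a level at which no DU145 change could be seen, and the call was lost with a pseudocount of 0.1 (adjusted p = 0.0563). A negative value means a lower change in DU145 than in PC3.

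Among the pathway genes named, the ligand genes BMP2 and INHBB differed by -2.13 and 0.65. Both were also below 1 TPM in every DU145 library and tested through PC3 alone, and with a pseudocount of 0.1 both calls were lost (BMP2 -2.44, adjusted p = 0.0514, and INHBB 0.27, adjusted p = 0.424). The latency and processing genes LTBP1, LTBP4 and FURIN differed by 1.72, 1.09 and 0.79. The receptor gene ACVR1B differed by -0.71. Of the regulators, NEDD4L differed by -1.41, SMURF1 by -0.86, STRAP by -0.51 (-0.505), FKBP1A by 0.56 (0.555) and SMAD2 by 0.54. Of the targets, TGFBI differed by -0.92 (-0.915), TGM2 by -1.23, FN1 by -1.73, CDKN1A by -1.51 and COL4A1 by 1.57. Leaving out 1 library ended this call for ID2, INHBB, FURIN, ACVR1B, FKBP1A, SMAD2 and STRAP, with an adjusted p between 0.0503 and 0.127.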

How the results depend on the processing

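Over the 10 genes, 4 comparisons and all alternatives, 547 values kept direction and side of the threshold, 55 lost the call, 13 gained it and 4 changed sign. The sign changes were TGFB2 between the controls, at 0.007 with median-of-ratios and 0.001 with upper-quartile scaling, and the SMAD7 difference between lines, at 0.125 without the first PC3 control and 0.072 without the first PC3 library with TRIB1 (range over libraries left out -0.485 to 0.125). Median-of-ratios scaling moved the median of all genes between the controls to 0 (main -0.178). Of the 10 genes, the count in DU145 (1) was 0 with upper-quartile scaling and with the line fitted alone, and 0 to 2 with 1 library left out. The count in PC3 (8) was 5 with the line fitted alone and 5 to 8 with 1 library left out, and that of differences (4) was 7 with protein-coding genes alone. Of the pathway genes, the DU145 count (9) was 5 with upper-quartile scaling, 17 with protein-coding genes alone and 2 with the line fitted alone. With 1 library left out it was 5 to 7, the PC3 count (28) was 18 to 26 and the count of differences (24) was 13 to 25. The cause was not tested. A group left with 1 library is assumed to vary like the others.

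Same-numbered libraries did not deviate together (r = -0.042 in DU145 and -0.01 in PC3 over 25982 genes). With the replicate number as a block, the counts of the 10 genes were 0 in DU145, 5 in PC3 and 0 for the difference, and the pathway counts were 0 in DU145 and 3 for the difference. Over all genes 1 then rose and 10 fell in DU145, and 784 rose and 951 fell in PC3. The difference passed for 19 upwards and 55 downwards. TPM without depth limits what the lowest values show, INHBA in DU145 above all.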
